A study of Drosophila melanogaster with 6 samples.

Results

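The vacuolar proton pump genes of Drosophila were read in larvae with and without a mutation of maleless. The members were all genes whose current symbol starts with Vha, together with ATP6AP2, the current symbol of VhaM8.9. The RefSeq gene table holds 34 such genes. Of these, 30 had a probe set of their own and were analysed, of 10843 genes in all. Vha68-1 and Vha68-2, which encode the catalytic subunit A, and the isoforms Vha16-3 and Vha100-3 were not analysed here. The members had 33 probe sets, and the brightest probe set stood for each of the 3 genes that had more than 1.

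The series holds 6 single-colour Affymetrix arrays. The control group was 3 arrays of wild type larvae, written cancon S in the labels, and the other group was 3 arrays of larvae homozygous for mle (mle/mle). All were at the third larval instar. The mle/mle larvae were males by their label, picked by phenotype from among mle/ T(2-3)Tb heterozygotes. The labels give no allele of mle and no sex for wild type, so strain and sex cannot be told apart from mle. The number of larvae per array is not given either, and p-values measure only the spread between these RNA samples. The RNA came from larvae with no tissue named, so fewer cells of a type and less RNA per cell cannot be told apart.

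The vacuolar ATPase is a rotary pump that uses ATP to move protons across membranes. Its V1 sector in the cytosol holds subunits A to H, where A and B form the head that splits ATP, D and F form the turning shaft, and C, E, G and H hold the head in place. Its V0 sector in the membrane holds a ring of c and c'' subunits that turns against subunit a, with the subunits d and e. The pump acidifies lysosomes and endosomes in all cells, and at the plasma membrane of the insect gut and Malpighian tubules it drives ion transport. Fly genomes hold several isoforms of most subunits, of which some are widely expressed and others are kept to few tissues. The protein product of mle is an RNA helicase of the complex that raises transcription of the male X chromosome.

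Signals were log2 RMA values. Each array gave 13966 tested values, and correlations between arrays lay between 0.987 and 0.997. Both arrays numbered 2 stood apart: the mean correlation with the other arrays was 0.9894 for wild type replicate 2 and 0.9899 for mle/mle replicate 2, against 0.9918 to 0.9933 for the other 4. The larval label was checked against 8 measured markers of the third instar, among them the glue genes Sgs5 and Sgs8 and the late larval gene Eig71Ee, and all 8 lay above the median signal. The signal of mle itself was 5.45 ± 0.10 (SD, n = 3) for wild type arrays and 5.34 ± 0.08 (SD, n = 3) for mle/mle arrays and did not pass the test (limma, adjusted p = 0.9997), so it does not check the genotype.

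Signals of the widely expressed pump subunits were slightly higher in mle/mle, and none passed the test. The 15 analysed subunit genes taken as widely expressed, called core subunits here, had log2 differences from 0.0030 to 0.25 with a median of 0.16. They include Vha100-1, which is known for its role at synapses of neurons. All 15 lay above 0 as deposited, but 14 of 15 after centring on the autosomal median, 13 of 15 after quantile normalization and 14 of 15 in the PLIER table. Quantile normalization lowered the median to 0.096. The other 15 members had 10 differences above 0 and 5 below, with a median of 0.02. The core list was drawn up with earlier results of these data known, so the counts of core subunits only describe the values. Of the 25 members with a mean signal at or above the median of all tested probe sets, core or not, 22 lay above 0. The median over all 10843 genes was 0.0067, where 53.6% of genes had a difference above 0. By limma, 0 of the 30 members were called at an adjusted p under 0.05 (adjusted p = 0.9997 for each), against 0.0646% of all genes. On the probe sets that stood for them, none had an unadjusted p under 0.05, against 4.63% of all genes, and the 95% interval of the difference included 0 for all 30 members. Wild type and mle/mle arrays were fully separated in 3 of 30 members, Vha36-1, Vha36-3 and Vha16-2, against 8.63% of all genes, which is near the background.

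**Figure D1:**
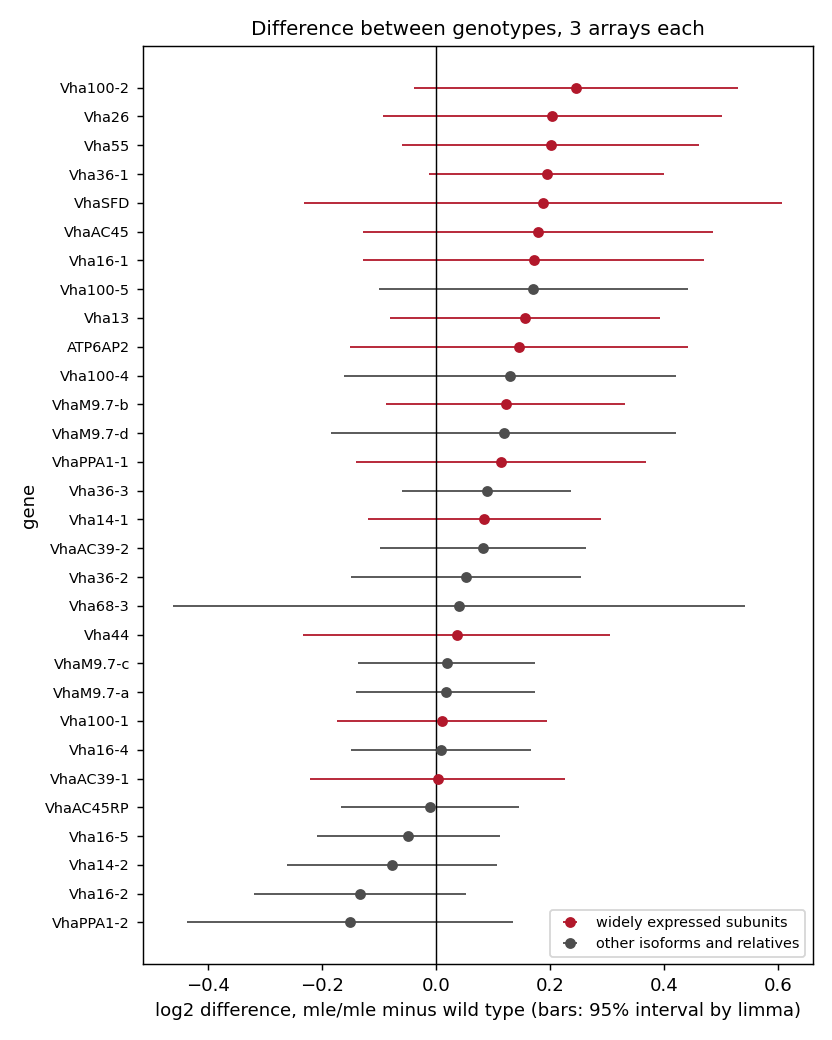
Log2 difference in signal, mle/mle minus wild type, for the 30 members, with 3 arrays in each group. Points are fitted differences, bars are 95% intervals by limma, red marks the 15 core subunits and grey the other members. All red points lie above 0 as deposited (13 or 14 of 15 under the other scalings), from 0.0030 for VhaAC39-1 to 0.25 for Vha100-2, and every bar includes 0.

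The difference lay with some arrays rather than with the whole mle/mle group. On mle/mle replicate 1 all 15 core subunits were above their own mean over the 6 arrays, and on mle/mle replicate 3 it was 14 of 15, with Vha44 the exception. On mle/mle replicate 2 it was 1 of 15, Vha36-1. In wild type it was 3 of 15 on replicate 1, 0 of 15 on replicate 2 and 8 of 15 on replicate 3. Over all genes these shares were 41.7%, 45.8% and 53.8% on the wild type arrays and 49.8%, 59.9% and 46.9% on the mle/mle arrays. Wild type replicate 3 was the array on which the core subunits were nearly evenly split. Each gene's mean is over the same 6 arrays, so the arrays are not independent in these counts.

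**Figure D2:**
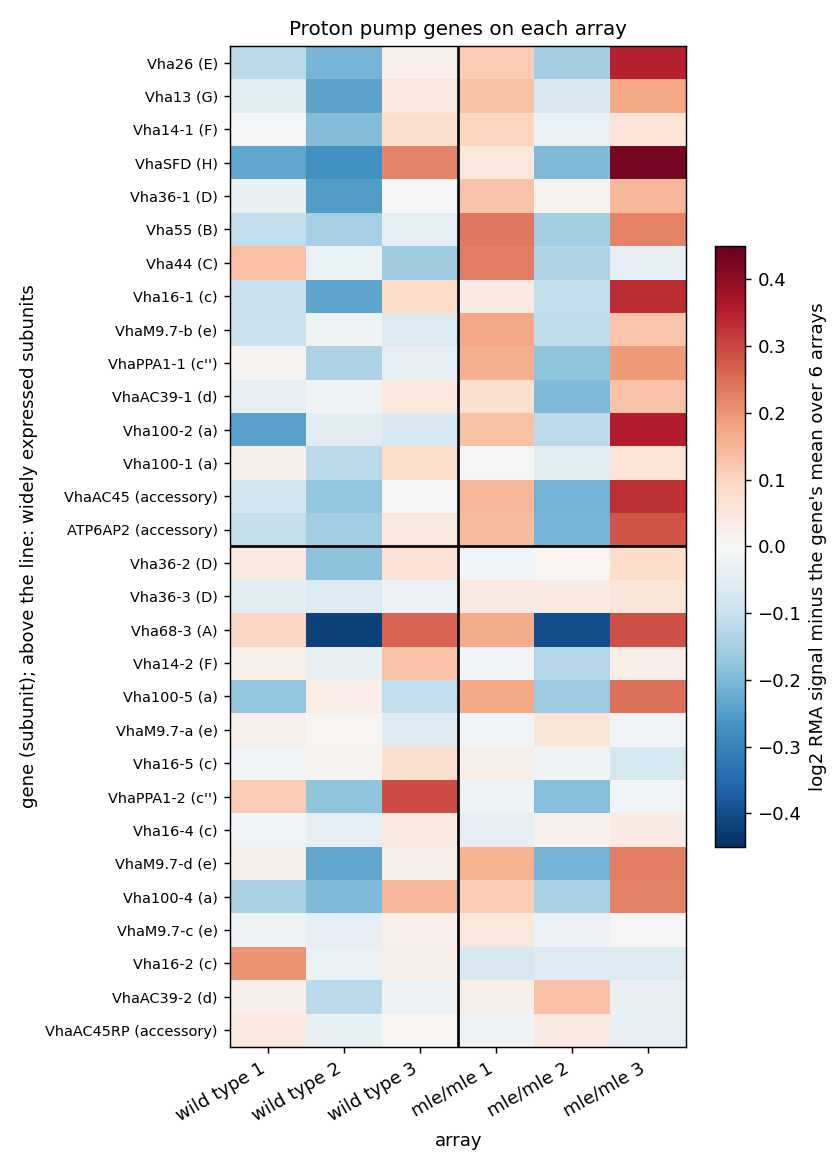
Each row is a member with its subunit in brackets, each column an array, and colour gives the log2 signal minus the gene's mean over the 6 arrays. Core subunits stand above the horizontal line. All 15 are above their mean on mle/mle replicate 1 and all 15 are below it on wild type replicate 2.

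The median of the core subunits, centred on each gene's mean, was -0.09, -0.16 and 0.02 on wild type replicates 1 to 3 and 0.13, -0.14 and 0.19 on mle/mle replicates 1 to 3. The groups therefore overlapped, because mle/mle replicate 2 lay below wild type replicates 1 and 3. Between replicates this median had an SD of 0.09 among wild type and 0.17 among mle/mle arrays, and the group means were -0.07 and 0.06. The difference between the groups was smaller than the SD of the mle/mle arrays. For the other 15 members the medians stayed between -0.04 and 0.03 on every array, and for all genes between -0.02 and 0.03.

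Marker lists of other kinds also varied by array. On the same centred scale the median of 13 testis markers was 0.07, -0.14 and 0.08 on the wild type arrays, against 0.05, -0.14 and 0.09 on the mle/mle arrays, low on both arrays numbered 2 as the core subunits were. The median of the 8 markers of the third instar was 0.10, 0.08 and 0.11 on the wild type arrays, against -0.25, 0.02 and -0.18 on the mle/mle arrays, lowest on mle/mle replicates 1 and 3, where the core subunits were highest. The part of testis RNA and of larval age in the pump gene values was not tested.

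**Figure D3:**
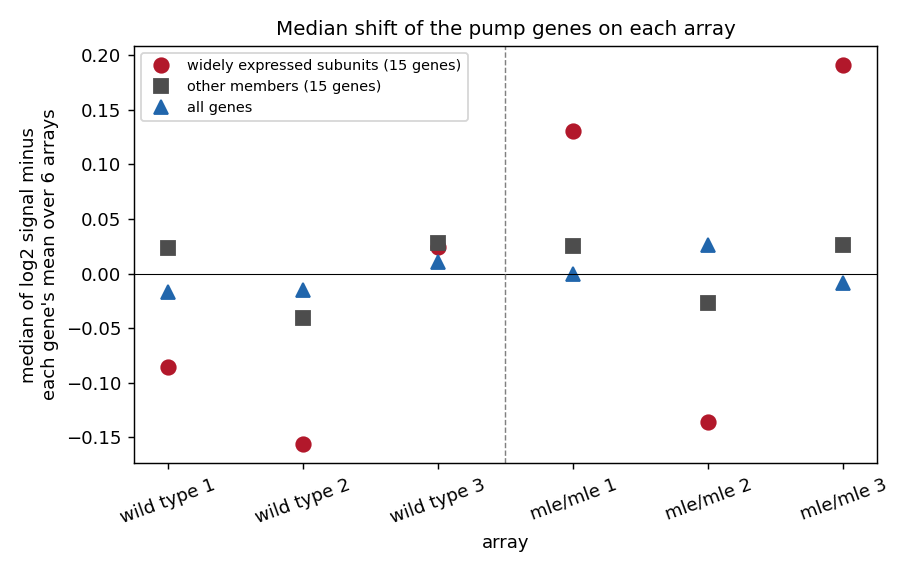
Median over genes of the log2 signal minus each gene's mean, on each of the 6 arrays, for the core subunits, the other members and all genes. The core subunits span -0.16 to 0.19, and mle/mle replicate 2 lies with wild type replicate 2.

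Among the V1 subunits, the 7 core genes had log2 differences from 0.04 to 0.20, with a median of 0.19. Vha26, subunit E of the stator, read 11.13, 11.04 and 11.28 on the wild type arrays, against 11.37, 11.10 and 11.60 on the mle/mle arrays. Its mle/mle replicates 1 and 3 were above every wild type array, and replicate 2 lay among the wild type values. The difference was 0.20 (SE 0.13, 95% interval -0.09 to 0.50), or 1.15 times the wild type signal. Vha36-1, subunit D of the turning shaft, read 10.13, 9.91 and 10.15 on the wild type arrays, against 10.29, 10.17 and 10.31 on the mle/mle arrays. Among the brightest probe sets that stood for the members, it was the only core subunit whose groups did not overlap, and it had the smallest unadjusted p. The difference was 0.19 (SE 0.09, 95% interval -0.01 to 0.40).

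Vha55, subunit B of the head, read 9.36, 9.32 and 9.42 on the wild type arrays, against 9.705, 9.31 and 9.69 on the mle/mle arrays. Here mle/mle replicate 2 was the lowest of the 6 arrays, while the other mle/mle arrays exceeded every wild type array. Wild type arrays had an SD of 0.05 and mle/mle arrays one of 0.22, and the difference was 0.20 (95% interval -0.06 to 0.46). VhaSFD, subunit H, which regulates V1, read 10.16, 10.13 and 10.62 on the wild type arrays, against 10.45, 10.20 and 10.83 on the mle/mle arrays. It was high on both arrays numbered 3 and low on both numbered 2, so that its groups overlapped widely and its 95% interval, -0.23 to 0.61, was the widest of the core subunits. Its second probe set gave a difference of 0.26 against 0.19 for the one used. Vha13, subunit G, had a difference of 0.16 and Vha14-1, subunit F, one of 0.09.

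Vha44, subunit C, which ties the head to the membrane sector, stood apart from the other core V1 genes. It read 9.39, 9.22 and 9.10 on the wild type arrays, against 9.49, 9.12 and 9.21 on the mle/mle arrays. Signals were highest on the arrays numbered 1 and lowest on wild type replicate 3, where no other core subunit was lowest, and the difference was 0.04 (95% interval -0.23 to 0.31).

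Among the V0 subunits, the 6 core genes had log2 differences from 0.0030 to 0.25, with a median of 0.12. Vha16-1, the main c subunit of the ring, had the brightest probe set of the members and read 12.11, 11.98 and 12.30 on the wild type arrays, against 12.25, 12.11 and 12.55 on the mle/mle arrays. The groups overlapped, and the difference was 0.17 (95% interval -0.13 to 0.47). Its second probe set was dim, with a mean signal of 4.36, and read 4.30, 4.24 and 4.24 on the wild type arrays, against 4.55, 4.38 and 4.47 on the mle/mle arrays. Here the groups did not overlap, and the difference of 0.21 had an unadjusted p under 0.05 but did not pass (limma, adjusted p = 0.91). VhaPPA1-1, the c'' subunit, differed by 0.11 with overlapping groups. Its second, dim probe set differed by 0.13, and there too all 3 mle/mle values lay above all wild type values. VhaM9.7-b, subunit e, differed by 0.12.

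The a subunits form the path of the proton. Vha100-2 read 9.16, 9.35 and 9.33 on the wild type arrays, against 9.53, 9.29 and 9.76 on the mle/mle arrays. Its difference of 0.25 (SE 0.12, 95% interval -0.04 to 0.53) was the largest among the 30 members and equals 1.19 times the wild type signal. Vha100-1, which acts at synapses of neurons, was nevertheless counted with the core subunits. It read 8.13, 7.98 and 8.18 on the wild type arrays, against 8.11, 8.05 and 8.17 on the mle/mle arrays. The order of replicate numbers was the same in both groups, and the difference was 0.01 (95% interval -0.17 to 0.20). Vha100-4, known from the acid-secreting copper cells of the midgut, read 6.87, 6.82 and 7.16 on the wild type arrays, against 7.13, 6.87 and 7.24 on the mle/mle arrays. Its difference was 0.13 (95% interval -0.16 to 0.42). Vha100-5 read 9.25, 9.46 and 9.32 on the wild type arrays, against 9.60, 9.27 and 9.68 on the mle/mle arrays, with a difference of 0.17 (95% interval -0.10 to 0.44). The differences of the a isoforms were not tested against each other.

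Of the accessory subunits, VhaAC45 read 9.71, 9.62 and 9.78 on the wild type arrays, against 9.94, 9.58 and 10.12 on the mle/mle arrays, and its groups overlapped. ATP6AP2, the fly relative of the mammalian prorenin receptor, read 9.66, 9.62 and 9.82 on the wild type arrays, against 9.92, 9.57 and 10.06 on the mle/mle arrays. In both genes mle/mle replicate 2 was the lowest array and mle/mle replicate 3 the highest. Their differences were 0.18 and 0.15. VhaAC45RP, a gene related to VhaAC45, stayed between 8.38 and 8.46 on all arrays and differed by -0.01.

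VhaAC39-1, subunit d, and Vha36-3, an isoform of subunit D, are the only members on the X chromosome; 13 lie on 3R, 7 on 2R, 4 on 2L and 4 on 3L. VhaAC39-1 read 9.58, 9.60 and 9.67 on the wild type arrays, against 9.69, 9.42 and 9.75 on the mle/mle arrays. The lowest and the highest array were both mle/mle, and its difference of 0.0030 (95% interval -0.22 to 0.23) was the smallest of the core subunits. It turned to -0.0079 after centring on the autosomal median, -0.052 after quantile normalization and -0.0075 in the PLIER table. Vha36-3 read 7.07, 7.06 and 7.09 on the wild type arrays, against 7.16, 7.15 and 7.17 on the mle/mle arrays. Its groups did not overlap and its SD was 0.02 and 0.01, and the difference of 0.09 (95% interval -0.06 to 0.24) did not pass (limma, adjusted p = 0.9997).

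The mean signal of 25 members was at or above the median of all tested probe sets, 6.91, and these are called bright. They include all 15 core subunits and 10 of the other members. Vha100-4 lay just above this limit, at 7.01, and VhaM9.7-c just below it, at 6.84. The median log2 difference was 0.12 over the 25 bright members, of which 22 were above 0, and 0.02 over the 5 dim ones, of which 3 were above 0. Among all genes the medians were 0.01 for bright and 0.00079 for dim genes, with 56.4% and 50.3% above 0. Signals of different probe sets do not compare amounts of RNA, RMA compresses changes of dim probe sets, and no detection call was used here, so the dim isoforms cannot be called absent.

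None of the dim isoforms passed the test. Vha16-2, a c subunit isoform, read 6.80, 6.57 and 6.63 on the wild type arrays, against 6.52, 6.54 and 6.54 on the mle/mle arrays. All 3 mle/mle values lay below all wild type values, and the difference was -0.13 (95% interval -0.32 to 0.05). In the RefSeq table the old name CG7547 belongs to both Vha16-2 and Vha16-3, so it is not settled here which of them this probe set reads. VhaAC39-2 and Vha14-2 lay below the lower quartile of all signals and differed by 0.08 and -0.08, and VhaM9.7-c by 0.02.

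Vha68-3, an isoform of the catalytic subunit A known from testis, had the largest spread of the members. It read 6.65, 6.14 and 6.83 on the wild type arrays, against 6.73, 6.16 and 6.85 on the mle/mle arrays. Both arrays numbered 2 were low, and the groups covered nearly the same range, with SDs of 0.36 and 0.37 and a difference of 0.04 (95% interval -0.46 to 0.54). The log2 of the summed signals of 13 testis markers moved the same way, at 12.58, 12.02 and 12.62 on the wild type arrays, against 12.63, 11.65 and 12.61 on the mle/mle arrays; 10 of the 13 had a difference below 0, none with an unadjusted p under 0.05 by limma. The part of testis RNA in the Vha68-3 values was not tested.

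Among the bright isoforms outside the core list, VhaPPA1-2, a c'' isoform that lies near VhaPPA1-1 on 3R, had the lowest difference of the members. It read 8.12, 7.83 and 8.30 on the wild type arrays, against 7.98, 7.81 and 7.99 on the mle/mle arrays. The difference was -0.15 (95% interval -0.44 to 0.13). Both of its arrays numbered 2 were low, and the groups overlapped. VhaM9.7-d, subunit e, differed by 0.12 with the array order of the core subunits, high on mle/mle replicates 1 and 3 and low on both replicates 2. Vha16-4, Vha16-5, VhaM9.7-a, Vha36-3 and VhaAC45RP each spanned less than 0.2 over the 6 arrays, as did the dim isoform VhaM9.7-c. Of these Vha16-4 and VhaM9.7-a differed by 0.01 and 0.02 and Vha16-5 by -0.05. Vha36-2, an isoform of subunit D, differed by 0.05.

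Same-numbered arrays deviated together over all probe sets, so the differences were also taken within the 3 same-numbered pairs. In the pair numbered 1 the core subunits were higher in mle/mle in 14 of 15 genes, with a median of 0.18, and in the pair numbered 3 in 13 of 15, with a median of 0.20. In the pair numbered 2 it was 7 of 15, with a median of -0.01. Over all genes the pair medians were 0.01, 0.02 and -0.02. Higher in all 3 pairs were 9 of the 30 members and 8 of the 25 bright members, against 15.5% of all genes and 17.7% of bright genes. Among them were 5 of the 15 core subunits, Vha36-1, Vha26, Vha13, Vha16-1 and VhaSFD, a count that only describes the values. Lower in all 3 pairs were 0 core subunits and 3 of the 30 members, Vha14-2, Vha16-2 and VhaPPA1-2. The share of all genes lower in all 3 pairs is not given here, so that count has no background beside it.

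With the replicate number as a block, limma called 0 of 30 members at an adjusted p under 0.05, against 0.0553% of all genes, and the smallest adjusted p was 0.55. At an unadjusted p under 0.05 it had 5 members, all higher in mle/mle, where 4.72% of all genes were higher. These were Vha36-1, Vha26, VhaSFD, Vha16-1 and Vha13, the 5 core subunits that were higher in all 3 pairs. The block fit uses the same pair differences, so this overlap is not separate support.

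**Figure D4:**
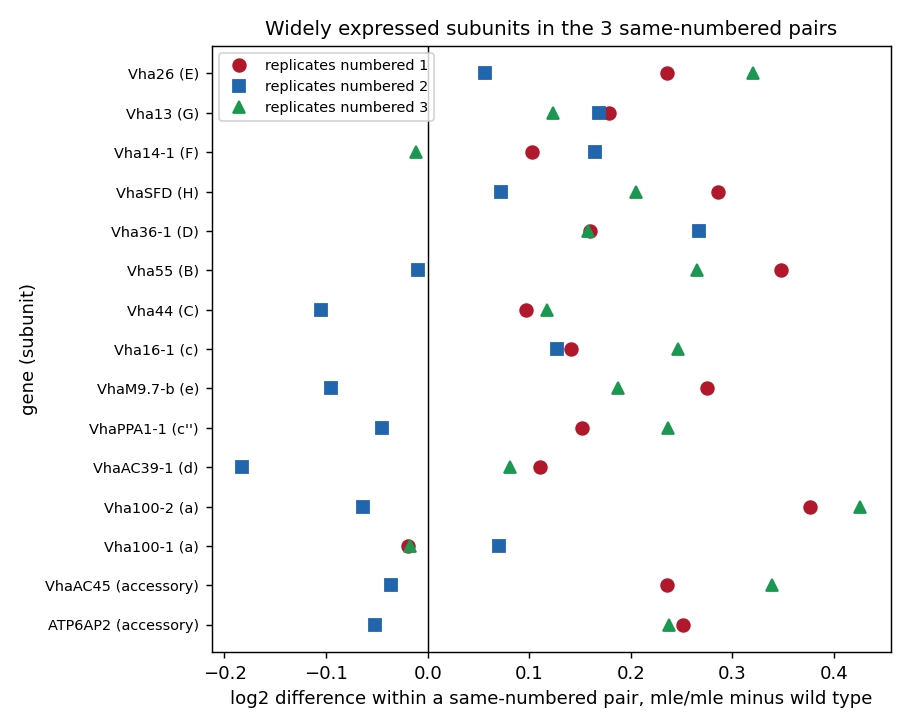
Log2 difference within each same-numbered pair of arrays, mle/mle minus wild type, for the 15 core subunits with their subunit in brackets. The pairs numbered 1 and 3 lie mostly above 0, with medians of 0.18 and 0.20, and the pair numbered 2 is spread around 0 with a median of -0.01.

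Without replicate 2 of both groups the core subunits had a median difference of 0.19, with 14 of 15 above 0. The core list was drawn up with earlier results known, so that count only describes the values. The 25 bright members had a median of 0.16 in this fit, with 19 above 0, where 50.2% of all genes were. At an unadjusted p under 0.05 this fit had 8 members higher, where 7.55% of all genes were, and 1 lower, where 6.84% were. The higher ones were Vha100-5, Vha55, Vha100-2, VhaAC45, VhaM9.7-b, Vha26, ATP6AP2 and VhaPPA1-1, and the lower one was VhaPPA1-2. Of these Vha100-5 alone was called, at 0.35 (limma, adjusted p = 0.048), where 2.44% of all genes were called higher, so the share of members called was near the background. Vha55 differed there by 0.31 (limma, adjusted p = 0.075) and Vha100-2 by 0.40 (limma, adjusted p = 0.081). Without mle/mle replicate 2 alone the core median was 0.24. An unadjusted p under 0.05 was reached there by 10 members that were higher and 0 that were lower, against 6.13% and 2.28% of all genes. By limma 0 members were called, where 1.13% of all genes were. Core subunits were low on the array left out, so leaving it out had to raise their median. These values are therefore no separate support for a difference. Without mle/mle replicate 3 alone the core median was 0.066, and without wild type replicate 2 alone it was 0.099.

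Genes of the gut and of the larval stage were read beside the pump. Of 9 digestive enzyme markers, an unadjusted p under 0.05 was reached by 4 that read higher in mle/mle and 2 that read lower, and Amy-d, an alpha-amylase, was called (1.30, limma, adjusted p = 0.0076). The protease Jon44E (0.81) and both maltases, Mal-A1 (0.48) and Mal-A6 (0.56), were the other higher ones, while Jon99Fi (-0.61) and betaTry (-0.58), also proteases, were lower. These 5 did not pass adjustment, with adjusted p from 0.095 for Mal-A6, Jon44E and betaTry to 0.28 for Mal-A1 by limma. Without replicate 2 of both groups all 6 were called, 4 higher and 2 lower. The log2 of the summed signal of all 9 markers ranged from 16.03 to 16.14 in wild type and from 16.05 to 16.13 in mle/mle. This sum includes the very bright Jon65Aiii, LysB and LysD, which are not among the 6. The median of all 9 on the centred scale was -0.10, -0.01 and -0.13 on the wild type arrays, against 0.11, -0.01 and 0.11 on the mle/mle arrays. Here mle/mle replicate 2 again lay nearest to wild type. The part of gut RNA in the pump gene values was not tested.

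Of 9 measured Malpighian tubule markers 6 were above 0, with a median difference of 0.02 and a summed log2 signal of 10.88 to 11.08 in wild type and 11.02 to 11.07 in mle/mle. The chloride channel gene SecCl, the only 1 of the 9 at an unadjusted p under 0.05 by limma, differed by 0.27 (limma, adjusted p = 0.72). The next largest differences were 0.26 for salt and 0.19 for ZnT35C, and 3 of the 9 were below 0. The 3 measured markers of the copper and iron region had a median of -0.02 and summed signals of 12.96 to 12.98 in both groups. The 6 measured neuron markers had a median of -0.04, with 5 below 0. Of the third instar markers, Sgs8 (-0.49), Eig71Ee (-0.47) and Sgs5 (-0.34) were lower and Fbp1, a receptor of fat body storage protein, higher (0.27) at an unadjusted p under 0.05, none past adjustment. Without replicate 2 of both groups Sgs8 (-0.67, limma, adjusted p = 0.0019), Eig71Ee (-0.63, limma, adjusted p = 0.0051) and Sgs5 (-0.56, limma, adjusted p = 0.0082) were called lower. Their summed log2 signal was 16.12 to 16.20 in wild type and 15.96 to 16.15 in mle/mle.

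Genes that work with the pump had median differences near 0. Of 19 lysosomal hydrolases and membrane proteins 11 were above 0, with a median of 0.04, and 0 were called by limma. At an unadjusted p under 0.05 there were 2 higher, the alpha-mannosidase gene LManII (0.45, adjusted p = 0.73) and the beta-galactosidase gene Gal (0.26, adjusted p = 0.74). Without replicate 2 of both groups LManII was called higher (0.56, limma, adjusted p = 0.025) and 0 genes of the list were called lower. The median of the list in that fit was nevertheless below 0, at -0.093. The median of the lysosomal list on the centred scale was -0.02, -0.14 and 0.12 on the wild type arrays, against -0.06, 0.10 and 0.03 on the mle/mle arrays. It was thus above 0 on mle/mle replicate 2 and below 0 on mle/mle replicate 1, where the core subunits lay on the other side. Both lists were below 0 on wild type replicates 1 and 2, and both were above 0 on wild type replicate 3 and mle/mle replicate 3. Of 23 autophagy genes, 12, 2 and 19 were above their own mean on wild type replicates 1 to 3, against 6, 17 and 11 on mle/mle replicates 1 to 3. They were thus mostly below it on wild type replicate 2, as the core subunits were, and on the other side from the core subunits on mle/mle replicates 1 and 2. The autophagy list had a median difference of 0.04 and 0 genes at an unadjusted p under 0.05 by limma. Without replicate 2 of both groups its median was -0.092.

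Of 11 measured pump regulators and assembly factors, 7 were above 0, with a median of 0.04, and none had an unadjusted p under 0.05 by limma. Mitf, the transcription factor that activates pump and lysosome genes in flies, had one of the dimmest probe sets of the array and differed by 0.01. Rbcn-3B, a partner of the pump in endosomes, differed by -0.04, and Rbcn-3A was not analysed here. The 15 measured ion transport partners, which include exchangers, carbonic anhydrases and potassium channels, had 8 differences above 0 and a median of 0.01, with 0 at an unadjusted p under 0.05 by limma.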

How the data were processed

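The main values were the log2 signals that the authors deposited for each probe set. RMA is the tool in the submitters' processing notes, with no version, and its settings are not given in the sources used here. A second deposited table, of PLIER signals on the log2 scale (offset 16, per the file headers), was an alternative. Its columns show the group but no replicate number, and carry 2 array codes. Of 14010 probe sets, 44 controls were left out and 13966 tested. Symbols came from the platform annotation (12442 probe sets with 1 symbol, 327 with several, 1197 with none), and were updated through the RefSeq table of Release 6 plus ISO1 MT, where 12393 matched by Entrez ID and 4 by symbol. Differences came from two-sided tests in limma 3.58.1 (lmFit, eBayes; R 4.3.3), and p-values were adjusted by Benjamini-Hochberg over the whole table of tested probe sets; the script was tested on simulated data. Figures used matplotlib 3.10.9 in Python 3.11.15. Over probe sets, arrays with the same number in their titles deviated from their group means together (r = 0.17, 0.28 and 0.52), and the numbers were therefore taken to pair the samples. The members, the core list and all other lists were chosen with earlier results of these data known. All members were named, and of the other lists those with an unadjusted p under 0.05, plus Mitf, Rbcn-3B and mle. The number of arrays limits the precision.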

Additional observations from a re-analysis of the deposited data

How the results depend on the processing

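The count of called members was 0 in all 16 alternative fits except 1, which left out both arrays numbered 2 and called 1 member. The count at an unadjusted p under 0.05 was 0 in the main fit, 5 with the replicate block, 9 without replicate 2 of both groups and 0 to 10 when 1 array was left out, where 10 was without mle/mle replicate 2; in the other fits it was 0. The block changed no call. Leaving out 1 array moved the median of the core subunits between 0.066 and 0.24 and that of the bright members between 0.049 and 0.23, the lowest without mle/mle replicate 3 and the highest without mle/mle replicate 2. In the other fits these medians ran from 0.096 and 0.075 with quantile normalization to 0.19 and 0.16 without replicate 2 of both groups. The fits of the core median were added after the data were seen. The median of the dim members moved to -0.10 in the PLIER table, with and without the array code as a block, to -0.024 within the array code of 4 arrays, and to between -0.11 and 0.037 when 1 array was left out.

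Of 478 member values under alternatives, 46 in 11 members turned sign, none of them called. In the PLIER table, with and without the code as a block, these were Vha16-4 (-0.16), Vha16-5 (0.027), Vha68-3 (-0.11), VhaAC39-1 (-0.0075) and VhaAC39-2 (-0.016). Within the code of 4 arrays they were Vha16-4 (-0.18), Vha16-5 (0.12), Vha44 (-0.0018), Vha68-3 (-0.23), VhaAC39-1 (-0.042), VhaAC39-2 (-0.0099) and VhaAC45RP (0.0072). With quantile normalization they were Vha100-1 (-0.0040), Vha16-4 (-0.0032), VhaAC39-1 (-0.052) and VhaM9.7-a (-0.027), and with centring Vha16-4 (-0.0025) and VhaAC39-1 (-0.0079). Without replicate 2 of both groups they were Vha100-1 (-0.019), Vha16-4 (-0.017), Vha36-2 (-0.019) and VhaAC39-2 (-0.0026). Leaving out 1 array gave ranges of -0.047 to 0.053 for Vha100-1, -0.0099 to 0.033 for Vha16-4, -0.027 to 0.098 for Vha36-2, -0.070 to 0.11 for Vha44, -0.16 to 0.25 for Vha68-3, -0.061 to 0.10 for VhaAC39-1, -0.032 to 0.0081 for VhaAC45RP, -0.0065 to 0.034 for VhaM9.7-a and -0.0019 to 0.037 for VhaM9.7-c. The cause was not tested.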
